A study of Homo sapiens with 9 samples.

Results

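The replication-dependent histone genes encode the core histones H2A, H2B, H3 and H4 and the linker histone H1, the proteins that package newly copied DNA. They were taken as every protein-coding gene of the deposited table whose symbol begins with HIST1H, HIST2H, HIST3H or HIST4H, the older human symbols, in which the number after HIST names 1 of 4 genomic clusters. The table held 71 such genes of 57766 in all, and 18 histone-named pseudogenes were not counted among them. The symbol and the protein-coding label alone decided, so any such gene not tied to replication would also be counted. Of the 71, 26 had at least 1 RPKM (mapped reads scaled by transcript length and by library size) in at least 3 of the 9 libraries and are described gene by gene. The cells were HEK293 Freestyle, a suspension form of an established human embryonic kidney line, and the question was how a cell line responds to Zn(II) starvation. After at least 18 h of preculture and washing in PBS, cells of all groups were plated in 12-well plates for 36 h in untreated Freestyle medium (Full, 3 libraries), in Zn(II)-depleted Freestyle medium (Depleted, 3 libraries), or in depleted medium to which Zn(II) had been added back (Repleted, 3 libraries). The protocol, the same for all 9 libraries, also gives a wash with 500 µM EDTA, a metal chelator, followed by PBS; its wording leaves unclear whether the plates or the media were washed. All groups came from this 1 cell line, with no transgene or deletion, and the labels call the libraries a biological triplicate. RNA was purified by its poly(A) tail before single-end sequencing.

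Most messenger RNAs end in a poly(A) tail, but those of the replication-dependent histones normally do not. They end just after a conserved stem-loop in the 3′ untranslated region, which the stem-loop binding protein SLBP holds while the U7 small nuclear RNP guides the cut, and they are made in S phase and destroyed when DNA synthesis stops. Some of these genes also give longer transcripts that run past the stem-loop to a poly(A) signal, and poly(A) selection is meant to keep such polyadenylated RNA. The values below are therefore read as polyadenylated histone RNA and not as the whole supply of histone mRNA. Carry-over of histone RNA without a tail was not examined.

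The stem-loop itself was found in annotated transcripts (GENCODE 29, GRCh38) of 32 of the 71 genes, against 54 of 19702 protein-coding genes (0.274%). It was present in 19 of the 26 genes above the filter and in 13 of the 45 below it, and transcripts that end at the stop codon cannot show it. The stem-loop of each gene that differed between Depleted and Full and has one annotated is shown with 5 bases on either side, with the 16 bases of the stem-loop in capitals. The genes that rose come first.
HIST1H2AC: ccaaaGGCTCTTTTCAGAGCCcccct
HIST1H2AI: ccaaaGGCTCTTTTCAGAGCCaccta
HIST1H3H: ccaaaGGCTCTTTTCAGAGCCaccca
HIST1H4H: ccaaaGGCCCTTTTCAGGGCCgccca
The genes that fell follow.
HIST2H2AA3: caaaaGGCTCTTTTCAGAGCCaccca
HIST2H2BE: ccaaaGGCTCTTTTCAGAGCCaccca
HIST2H4B: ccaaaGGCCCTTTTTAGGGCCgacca
HIST3H2A: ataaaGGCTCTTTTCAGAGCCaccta
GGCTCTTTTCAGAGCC was the most frequent form, in 17 genes, and it occurs on both sides of this comparison. The H4 genes with an annotated stem-loop carried other forms, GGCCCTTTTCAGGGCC in HIST1H4H and 4 others and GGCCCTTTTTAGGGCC in HIST2H4A, HIST2H4B and HIST1H4I. Annotated RNA continued for at least 100 bases past the stem-loop in 14 of the 19 genes above the filter, and 10 of these 14 had the poly(A) signal AATAAA, or its common variant ATTAAA, in their last 40 bases. In the risers HIST1H2AC, HIST1H3H and HIST1H4H it continued for 1128, 769 and 1655 bases, and in the fallers HIST2H2BE, HIST2H4B and HIST3H2A for 1729, 1314 and 390 bases. HIST1H2AI (39 bases) and HIST2H2AA3 (35 bases) had only a short end annotated in GENCODE 29. The model for HIST1H1C, HIST1H2BK and HIST1H2BO in that release showed no stem-loop. These sequences are from a later genome build than hg19, on which the expression values rest, and no annotated end was checked against reads. The gene lengths listed with the RPKM differ from these transcripts for several genes. They were 974 bases for HIST2H2AA3 (longest transcript here 549), 473 for HIST1H3H (1237), 629 for HIST1H4H (2163) and 496 for HIST3H2A (895). For HIST2H2BE (2223 and 2194) and HIST2H4B (1696 and 1694) the lengths were close. The ends given above are thus not in every case the stretches counted.

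Promoters are shown for the most abundant histone RNAs and for a pair of opposite-strand genes in each of 2 clusters, because each pair shares 1 promoter between its members. The sequences are the up to 250 bases before the RefSeq start (GRCh38.p14), ended early at a neighbouring gene, and 66 of the 71 genes were matched, all 26 above the filter among them. Capitals mark matches on either strand to the CCAAT box (CCAAT), the TATA box (TATAAA), the octamer of POU factors (ATTTGCAT) and the H1 box (AAACACA).
HIST1H1C, chr6:26056471-26056720, minus strand: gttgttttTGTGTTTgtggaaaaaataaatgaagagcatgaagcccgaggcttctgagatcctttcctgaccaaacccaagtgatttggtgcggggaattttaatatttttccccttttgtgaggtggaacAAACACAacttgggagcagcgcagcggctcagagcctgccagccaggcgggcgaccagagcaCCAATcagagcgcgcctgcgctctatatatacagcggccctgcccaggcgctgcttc
HIST1H2BK, chr6:27146859-27147105, minus strand: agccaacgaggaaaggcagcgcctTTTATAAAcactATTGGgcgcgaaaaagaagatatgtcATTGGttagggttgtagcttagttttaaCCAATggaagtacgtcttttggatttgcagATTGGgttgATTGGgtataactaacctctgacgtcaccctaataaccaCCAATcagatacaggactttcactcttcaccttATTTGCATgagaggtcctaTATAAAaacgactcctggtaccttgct
HIST1H2AC with HIST1H2BC on the other strand, chr6:26123927-26124171, plus strand: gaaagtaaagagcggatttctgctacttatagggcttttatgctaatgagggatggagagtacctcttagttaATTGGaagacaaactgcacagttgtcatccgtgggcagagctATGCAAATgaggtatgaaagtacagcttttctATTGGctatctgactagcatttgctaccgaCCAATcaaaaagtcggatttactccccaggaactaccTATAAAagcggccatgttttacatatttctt
HIST2H2BE with HIST2H2AC on the other strand, chr1:149886683-149886917, minus strand: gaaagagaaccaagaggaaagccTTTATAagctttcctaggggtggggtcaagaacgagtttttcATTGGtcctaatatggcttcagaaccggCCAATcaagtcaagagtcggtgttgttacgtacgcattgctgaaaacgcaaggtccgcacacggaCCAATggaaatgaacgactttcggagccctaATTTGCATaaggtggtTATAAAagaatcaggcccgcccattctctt
TATAAA and its reverse complement can overlap, as at the left of the HIST1H2BK window. CCAAT was in 21 of the 26 promoters (80.8%) against 32.0% of all 35116 promoters in the RefSeq table, and TATAAA in 18 (69.2%) against 10.7%. The split by histone type was sharp for CCAAT, which was in every H1, H2A, H2B and H3 promoter among the 26 and in 0 of the 5 H4 promoters. The octamer was in 5 of 8 H2B and 4 of 8 H2A promoters and in none of the 10 others, 9 of 26 in all (34.6%), against 1.63% of all promoters. The H1 box was in the HIST1H1C promoter only among the 26 (3.85%, against 4.82% of all promoters). Among the genes that rose in Depleted against Full, 6 of 7 had CCAAT, 5 had TATAAA and 3 had the octamer, and among the 4 that fell the counts were 3, 2 and 1. A match describes letters in the window and no binding was measured.

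Polyadenylated histone RNA was mostly scarce, and a few genes made up most of it. Over the 26 genes the median of the mean level was 1.84 RPKM, against 13.8 RPKM for the 12892 protein-coding genes above the filter. HIST1H2BK, an H2B gene, was at 84.6 RPKM on average, the 91.0th percentile of protein-coding genes, and HIST1H1C, a linker histone gene, at 33.4 RPKM, the 74.6th percentile. HIST3H2A (19.3 RPKM), HIST2H2AA4 (19.1 RPKM) and HIST2H4A (12.1 RPKM) followed, and these 5 genes held 76.2% of the summed RPKM of all 71 in Full, 75.8% in Depleted and 73.3% in Repleted. The library values of HIST3H2A and HIST2H2AA4 overlap, so their order is not resolved. The other 21 genes had means between 0.787 RPKM (HIST1H2BO) and 5.61 RPKM (HIST1H2BJ).

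**Figure D1:**
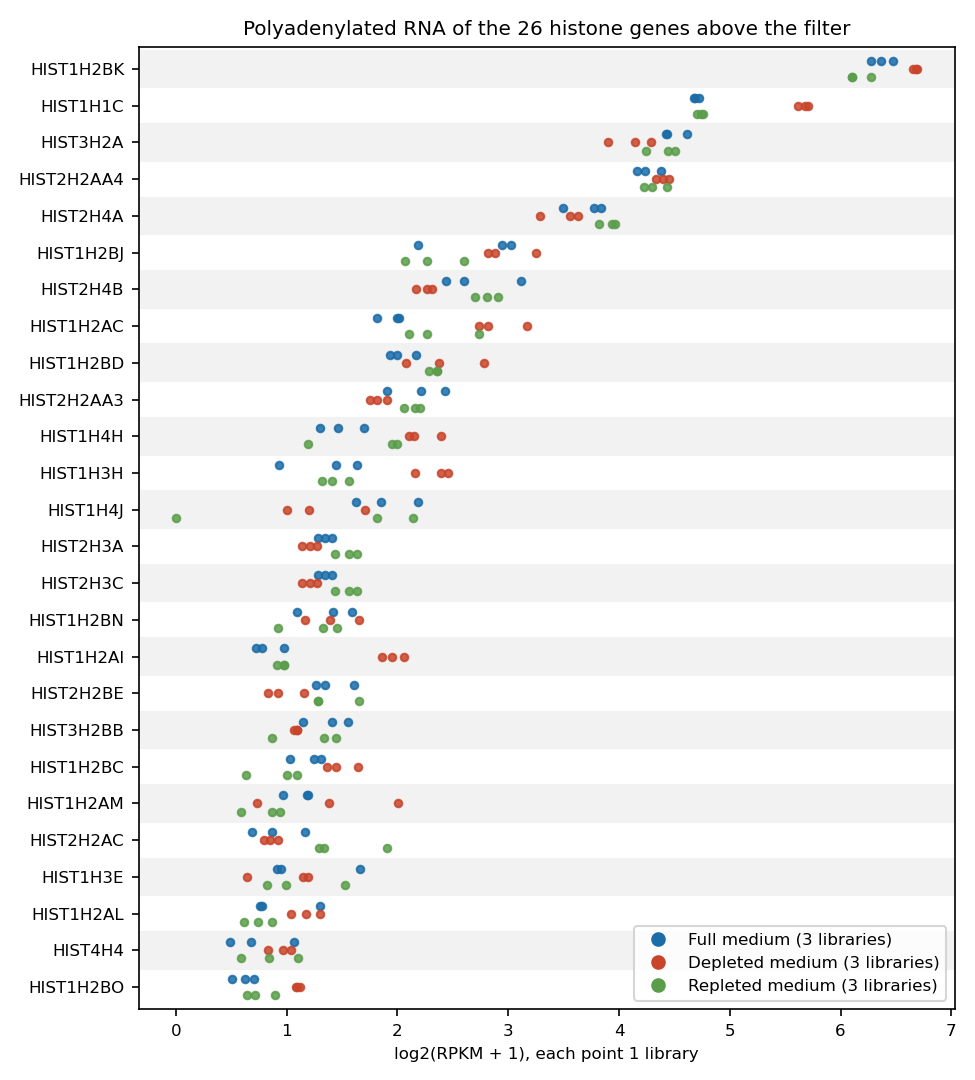
Level of each of the 26 histone genes above the filter, as log2(RPKM + 1) on the horizontal axis, in rows ordered by mean RPKM, each point 1 of 9 libraries (3 Full, 3 Depleted, 3 Repleted). HIST1H2BK and HIST1H1C stand to the right of all other genes, most genes lie under 3 on the log2 scale, and the single point at 0 is HIST1H4J in Repleted replicate 1.

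The remaining 45 genes were near or at the floor of the data. Of these, 11 were at 0 in all 9 libraries, 25 were above 0 in some library and under 1 RPKM in every one, and 9 reached 1 RPKM in 1 or 2 libraries. Those 9 were HIST1H3D, in 2 libraries, and HIST1H2AG, HIST2H2BF, HIST1H2AK, HIST1H4C, HIST1H1E, HIST2H3D, HIST1H4K and HIST1H3B, in 1 library each. The median of the 45 means was 0.112 RPKM. By type, 1 of 6 H1, 8 of 17 H2A, 8 of 18 H2B, 4 of 15 H3 and 5 of 15 H4 genes were above the filter. By cluster, it was 15 of 55 HIST1 genes on chromosome 6, 8 of 12 HIST2 and 2 of 3 HIST3 genes on chromosome 1, and HIST4H4, the single HIST4 gene, on chromosome 12.

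Depth was 1.69e+07 to 2.33e+07 reads per library, estimated from the steps between low RPKM values, of which 62.2% to 64.5% came out whole within 0.1 read. At that depth the scarce histone genes rest on few reads, about 3.34 to 10.2 per library for HIST1H2BO and 5.95 to 33.2 for HIST1H2AI, against 763 to 1464 for HIST1H2BK. Over all 15774 genes above the filter, libraries of the same group correlated at 0.983 to 0.987, Full with Repleted libraries at 0.982 to 0.986, and Depleted libraries with the others at 0.936 to 0.941. No library stood apart from its group. VIM, KRT8, KRT18, NEFM, PAX2 and LIN28B, genes expressed in HEK293, summed to between 811 and 853 RPKM in every library, with opposite differences inside that sum. VIM was at 577 RPKM in Full and 665 in Depleted, while the other 5 were lower in Depleted: KRT8 at 135 and 90.4 RPKM, KRT18 at 77.4 and 59.2, LIN28B at 38.3 and 25.2, NEFM at 3.90 and 2.8, and PAX2 at 3.29 and 0.60. All but PAX2 had a mean of at least 1 RPKM in every group. Of 5 genes of other cell types (PTPRC, CD34, ALB, DES, CDH5), DES alone reached a mean of 1 RPKM, 1.16 RPKM in Depleted, and the 5 summed to between 0.790 and 1.84 RPKM in every library. The proliferation genes MKI67, TOP2A and CCNB1 summed to 322 to 328 RPKM in Full, 299 to 303 in Depleted and 310 to 331 in Repleted. The lower sum in Depleted came from CCNB1 (167 RPKM in Full, 131 in Depleted, 165 in Repleted), since TOP2A was at 124, 132 and 118 RPKM and MKI67 at 34.8, 38.1 and 40.3 RPKM. The part of proliferation in the histone values was not tested.

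In Zn(II)-depleted medium polyadenylated histone RNA changed in both directions. HIST1H1C doubled from 24.9 to 49.8 RPKM, HIST1H2AI, HIST1H3H, HIST1H2AC, HIST1H4H and HIST1H2BO rose from lower levels, and HIST1H2BK rose from 82.0 to 101 RPKM. HIST3H2A fell from 21.5 to 16.4 RPKM, and HIST2H4B, HIST2H2BE and HIST2H2AA3 also fell. That made 11 of 26 genes called (42.3%; limma with Benjamini-Hochberg adjustment over all 15774 genes, adjusted p under 0.05), 7 higher and 4 lower, where 60.9% of the 15774 were called, 29.8% higher and 31.2% lower. The share called was thus below that of the table. HIST1H2AI, which passed the filter through the Depleted libraries only, was the single gene past 1 on the log2 scale. Of all genes, 10.1% were called and past 1 in either direction. The 1 RPKM added before taking logs shrinks the changes of scarce genes, and HIST1H3H, from 1.58 to 4.07 RPKM, came to 0.999. The 2 shares are therefore not alike for scarce histone genes and for all genes. The median log2 change, on the log2(RPKM + 1) scale, was 0.17 over the 26 genes and 0.000842 over all genes. The split depended on the scaling: with libraries centred on their medians it was 8 higher and 2 lower, and with quantile normalization 8 higher and 1 lower. Of the 4 that fell, HIST3H2A alone kept its call when Depleted 2 was left out, HIST3H2A and HIST2H2BE without Depleted 1, and HIST3H2A and HIST2H4B without Depleted 3. Without Full 3, HIST3H2A kept its call and HIST2H4A gained one, 2 in all. In bulk RNA, fewer cells of one state and less RNA per cell cannot be told apart.

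The 7 genes that rose were all among the 15 HIST1 genes tested, and the 4 that fell were among the 10 HIST2 and HIST3 genes. No HIST1 gene taken alone was called lower and no HIST2 or HIST3 gene was called higher. Genes that differed in the other direction were HIST1H4J, whose log2 change of -0.58 was not called but whose sum with a near-identical copy fell, and HIST1H3E (-0.18) and HIST2H2AA4 (0.13), neither of them called. Median log2 changes were 0.30 for HIST1, -0.18 for the 8 HIST2 genes and -0.33 for the 2 HIST3 genes. The libraries of Depleted and Full did not overlap for 8 HIST1 genes, all higher in Depleted, and for 7 HIST2 and HIST3 genes, all lower (67.6% of all genes did not overlap, 33.4% higher and 34.3% lower). The 7 lower genes include HIST2H3A and HIST2H3C, which had the same value in every library and are 1 measurement. They also include HIST2H2AA3, a small part of the sum with its near-identical copy, in which its fall was not seen. HIST4H4 had 0.697 ± 0.355 RPKM in Full and 0.930 ± 0.137 in Depleted (SD, n = 3), a difference that was not called (log2 change 0.20, SE 0.20, limma adjusted p = 0.394). This grouping by cluster was noticed in these data and the difference between clusters was not tested. HIST1H2AI and HIST1H2BO, 2 of the 7 risers, had at least 1 RPKM in the 3 Depleted libraries only, so they were tested because they were high there. Both are also among the 8 HIST1 genes without overlap, so the counts of 7 and 8 are descriptions.

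**Figure D2:**
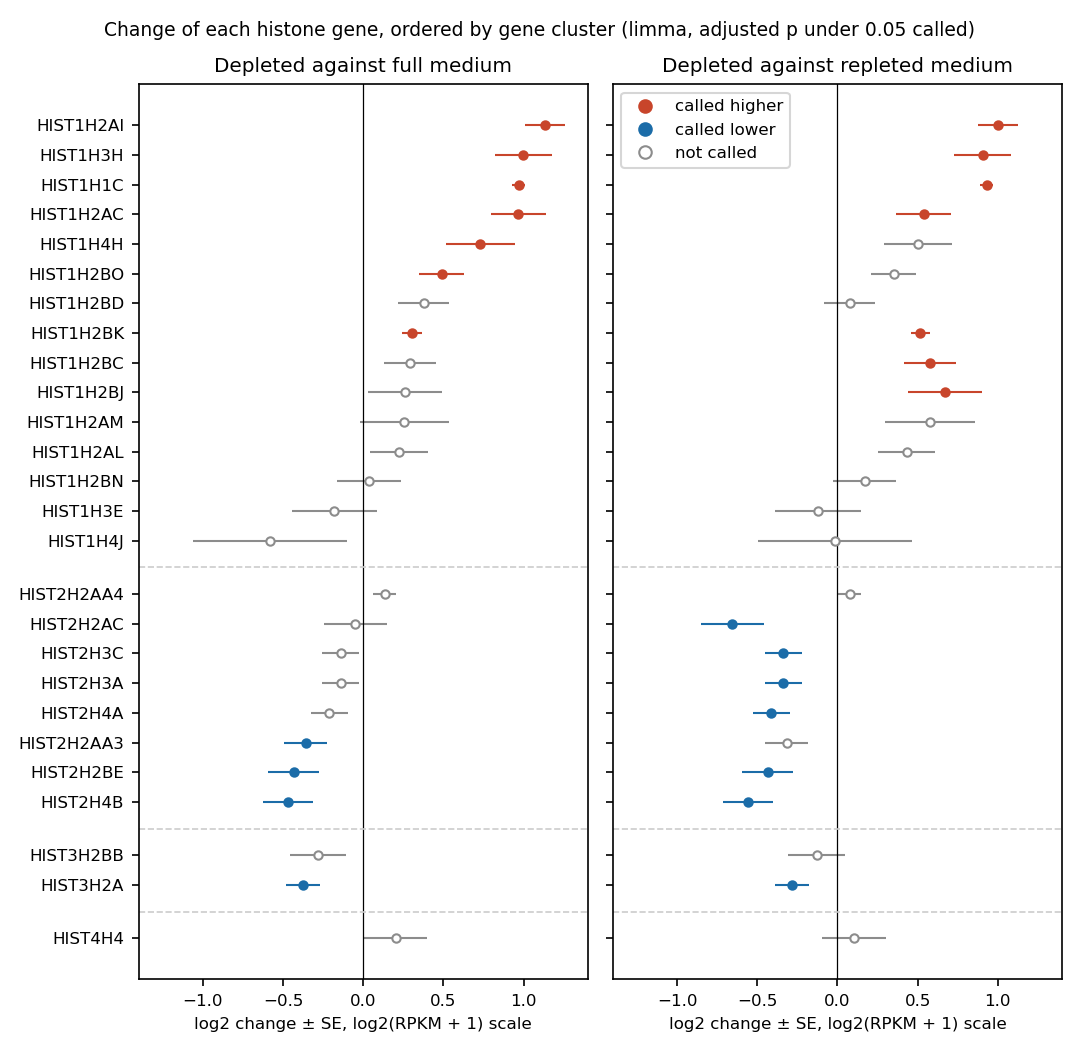
Log2 change of each of the 26 genes with its standard error from limma, on the log2(RPKM + 1) scale, in Depleted against Full (left) and Depleted against Repleted (right), with dashed lines between the HIST1, HIST2, HIST3 and HIST4 clusters. Filled red points are called higher and filled blue points called lower at an adjusted p under 0.05. Red points appear only in the HIST1 block and blue points only in the HIST2 and HIST3 blocks.

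Among H1 genes, which encode the linker histone that binds DNA between nucleosomes, HIST1H1C was alone above the filter. It was at 24.6, 24.7 and 25.4 RPKM in the 3 Full libraries, at 47.9, 51.2 and 50.3 in the 3 Depleted libraries and at 25.8, 26.1 and 25.1 in the 3 Repleted libraries. All Depleted libraries were far above all others, and the Full and Repleted libraries overlapped. The log2 change against Full was 0.97 (SE 0.04, limma adjusted p = 8.57e-08) and against Repleted 0.93 (SE 0.04, adjusted p = 1.08e-07). No stretch of 50 bases in its annotated transcripts was shared with another histone gene.

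Among H2A genes, HIST1H2AI and HIST1H2AC rose and HIST3H2A and HIST2H2AA3 fell. HIST1H2AI was at 0.710, 0.970 and 0.650 RPKM in Full, at 3.17, 2.86 and 2.64 in Depleted and at 0.970, 0.970 and 0.880 in Repleted, with no overlap between Depleted and the other groups. Its log2 change against Full, 1.13 (SE 0.12, limma adjusted p = 3.76e-05), is that of a gene tested through its Depleted libraries only, and 62.3% of its 50-base stretches are shared with HIST1H2AJ, a gene under the filter. HIST1H2AC, which encodes an H2A found in polyadenylated form in other cells, was at 2.53, 2.98 and 3.03 RPKM in Full, 6.06, 5.66 and 7.98 in Depleted and 5.67, 3.81 and 3.30 in Repleted. Here the Repleted libraries lay between the others, with Repleted replicate 1 just above the lowest Depleted library. The log2 change of HIST1H2AC was 0.97 against Full (SE 0.17, limma adjusted p = 0.000896) and 0.54 against Repleted (SE 0.17, adjusted p = 0.0217). The call against Repleted was lost without Depleted replicate 3 (adjusted p = 0.0826), Repleted replicate 2 (0.0664) or Repleted replicate 3 (0.0766), and when all genes were tested with no filter (0.0596).

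HIST3H2A, the H2A gene of the HIST3 cluster, was at 20.6, 23.5 and 20.5 RPKM in Full, 16.7, 18.6 and 14.0 in Depleted and 17.9, 21.6 and 20.7 in Repleted. Every Depleted library was below every Full library, and Depleted replicate 2 overlapped the Repleted libraries. The log2 change was -0.38 against Full (SE 0.11, limma adjusted p = 0.0126) and -0.28 against Repleted (SE 0.11, adjusted p = 0.0446). The second of these calls was lost when any of Full 1, Full 3, Depleted 1, Depleted 3, Repleted 2 or Repleted 3 was left out (adjusted p = 0.0573, 0.0559, 0.0742, 0.153, 0.137 and 0.109), with no filter (0.104), with its 6 libraries alone (0.0657) and with median centring (0.0840). HIST2H2AA3 was at 3.63, 2.75 and 4.40 RPKM in Full, 2.52, 2.38 and 2.74 in Depleted and 3.18, 3.6 and 3.47 in Repleted. Its log2 change against Full was -0.36 (SE 0.13, limma adjusted p = 0.0408), with 2.74 in Depleted next to 2.75 in Full. All 50-base stretches of its annotated transcript (549 bases, against a listed gene length of 974) occur in HIST2H2AA4, a near-identical copy. HIST2H2AA4 was at 17.0, 19.8 and 17.9 RPKM in Full, 20.0, 20.9 and 19.2 in Depleted and 18.7, 20.6 and 17.7 in Repleted. Summed, the copies were at 21.8 RPKM in Full and 22.6 in Depleted (log2 change 0.05, SE 0.06, limma adjusted p = 0.503). The fall of HIST2H2AA3 was not seen in the sum, a comparison added after its values were known. HIST2H2AA3, at 3.59 RPKM in Full and 2.55 in Depleted, was a small part of that sum, which could not decide whether it fell. The call for HIST2H2AA3 alone was also lost without any 1 of 8 of the 9 libraries, at adjusted p between 0.0503 and 0.146, and kept only without Full replicate 2. It was lost, too, with no filter (0.0996), with the 6 libraries of both groups alone (0.0668), with median centring (0.0701) and with quantile normalization (0.171). Against Repleted HIST2H2AA3 was not called. It passed there without Full 2 (limma adjusted p = 0.0281) or Full 3 (0.0381), with the 6 libraries alone (0.0316) and with protein-coding genes alone (0.0462).

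HIST2H2AC had its highest values in Repleted. It was at 0.830, 1.24 and 0.610 RPKM in Full, 0.900, 0.740 and 0.80 in Depleted and 1.53, 1.45 and 2.75 in Repleted, and every Repleted library was above every other library. Against Repleted the log2 change in Depleted was -0.66 (SE 0.20, limma adjusted p = 0.0157), lost without Repleted replicate 3 (adjusted p = 0.0514), and against Full it was -0.05 (SE 0.20, adjusted p = 0.839). Repleted against Full was not called (limma adjusted p = 0.525). HIST2H2AC reached 1 RPKM in the 3 Repleted libraries and in Full replicate 2 only, so it was tested because it was high in Repleted. Of the 50-base stretches of HIST2H2AC, 30.5% are shared with the more abundant HIST2H2AA3, and how such reads were assigned is not known. HIST1H2AL (0.960 RPKM in Full, 1.26 in Depleted, 0.677 in Repleted) and HIST1H2AM (1.17, 1.76 and 0.747) were called in neither comparison. Both overlap another histone gene on their own strand, HIST1H2BN and HIST1H3J respectively. Without Depleted replicate 2, HIST1H2AM passed in both comparisons (limma adjusted p = 0.0497 and 0.00758), and without Full replicate 1 HIST1H2AL passed against Repleted (0.0324). HIST1H2AL also passed there with the 6 libraries alone (0.0437), median centring (0.0422), quantile normalization (0.0298) or protein-coding genes alone (0.0331). Outside Depleted, HIST1H2AL reached 1 RPKM in Full replicate 1 only, so it was tested because it was high in Depleted.

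Among H2B genes, HIST1H2BK and HIST1H2BO rose and HIST2H2BE fell. HIST1H2BK was at 81.5, 76.5 and 88.1 RPKM in Full, 99.6, 102 and 103 in Depleted and 76.5, 67.7 and 67.6 in Repleted, and all Depleted libraries were above all others. The log2 change was 0.30 against Full (SE 0.06, limma adjusted p = 0.00185) and 0.52 against Repleted (SE 0.06, adjusted p = 6.02e-05). Of its annotated 50-base stretches, 22.6% are shared with other histone genes. HIST1H2BO was at 0.540, 0.630 and 0.420 RPKM in Full, 1.12, 1.13 and 1.18 in Depleted and 0.860, 0.640 and 0.560 in Repleted. Its log2 change against Full was 0.49 (SE 0.14, limma adjusted p = 0.0123) and against Repleted 0.35 (SE 0.14, adjusted p = 0.0522), again with no overlap of Depleted with the others. The second passed without Repleted replicate 1 (adjusted p = 0.0408), and with median centring (0.0309), quantile normalization (0.0147) or protein-coding genes alone (0.0211). A mean of at least 1 RPKM, the other filter tried, would have left this gene out.

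HIST2H2BE, an H2B gene with a long annotated end after its stem-loop, was at 1.4, 1.55 and 2.04 RPKM in Full, 1.23, 0.900 and 0.780 in Depleted and 1.44, 2.15 and 1.43 in Repleted. Depleted libraries were below all others. The log2 change was -0.43 against Full (SE 0.16, limma adjusted p = 0.0409) and -0.44 against Repleted (SE 0.16, adjusted p = 0.0405). The first call was lost without Full 2, Full 3, Depleted 2 or Depleted 3 (adjusted p = 0.0693, 0.138, 0.0977 and 0.122), and the second without Full 2, Depleted 2, Depleted 3 or Repleted 2 (0.0550, 0.0970, 0.121 and 0.141). Both were also lost with no filter (0.114 and 0.113), median centring (0.0561 and 0.0575) and quantile normalization (0.0707 and 0.0843), and the second with the 6 libraries of its groups alone (0.0582).

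HIST1H2BC and HIST1H2BJ were called against Repleted only. HIST1H2BC was at 1.38, 1.04 and 1.48 RPKM in Full, 1.57, 1.73 and 2.13 in Depleted and 1.14, 1.00 and 0.55 in Repleted (log2 change against Repleted 0.58, SE 0.16, limma adjusted p = 0.0121). HIST1H2BJ was at 3.56, 6.70 and 7.16 RPKM in Full, 6.38, 8.54 and 6.04 in Depleted and 5.07, 3.19 and 3.82 in Repleted (log2 change against Repleted 0.67, SE 0.23, limma adjusted p = 0.0297). For both genes the Depleted libraries were above all Repleted libraries. The call for HIST1H2BJ was lost without Depleted 2, Repleted 2 or Repleted 3 (adjusted p = 0.104, 0.0989 and 0.0702) and with no filter (0.0805). The H2B genes HIST1H2BD (3.10 RPKM in Full, 4.42 in Depleted, 4.05 in Repleted), HIST1H2BN (1.61, 1.67 and 1.38) and HIST3H2BB (1.60, 1.12 and 1.36) were not called, although HIST1H2BD passed against Full without Depleted replicate 3 (limma adjusted p = 0.00976). HIST1H2BD also passed against Full with median centring (limma adjusted p = 0.0446), quantile normalization (0.0227) or protein-coding genes alone (0.0472).

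Among H3 genes, HIST1H3H rose. It was at 0.910, 2.10 and 1.72 RPKM in Full, 4.48, 3.47 and 4.25 in Depleted and 1.96, 1.66 and 1.49 in Repleted, with all Depleted libraries above all others. The log2 change was 1.00 against Full (SE 0.18, limma adjusted p = 0.000972) and 0.90 against Repleted (SE 0.18, adjusted p = 0.00177), and no 50-base stretch was shared with another histone gene. HIST2H3A and HIST2H3C encode the same H3, share all their 50-base stretches, and had the same value in every library, so they count as 1 measurement. Each was at 1.66, 1.54 and 1.44 RPKM in Full, 1.31, 1.2 and 1.42 in Depleted and 1.70, 2.10 and 1.96 in Repleted. Depleted libraries were below all Full and all Repleted libraries. For the sum of both the log2 change was -0.18 against Full (SE 0.10, limma adjusted p = 0.159) and -0.42 against Repleted (SE 0.10, adjusted p = 0.00571). Taken singly the call against Repleted (adjusted p = 0.0274) was lost without Depleted 1, Depleted 2, Repleted 2 or Repleted 3 (0.0604, 0.0826, 0.0856 and 0.0647), and with no filter (0.0885), the 6 libraries alone (0.0518), median centring (0.0533) or quantile normalization (0.108). HIST1H3E (1.32 RPKM in Full, 1.02 in Depleted, 1.22 in Repleted) was not called.

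Among H4 genes, HIST1H4H rose and HIST2H4B fell. HIST1H4H was at 1.47, 1.75 and 2.24 RPKM in Full, 4.26, 3.30 and 3.44 in Depleted and 2.99, 2.87 and 1.29 in Repleted, with Depleted above all others. The log2 change was 0.73 against Full (SE 0.21, limma adjusted p = 0.0143) and 0.50 against Repleted (SE 0.21, adjusted p = 0.0672). The first was lost without Full 1 (adjusted p = 0.0514) or Depleted 1 (0.0516), and the second passed without Repleted 1 (0.0397). The second also passed with median centring (0.0417), quantile normalization (0.0166) or protein-coding genes alone (0.0431). HIST2H4B was at 5.06, 4.43 and 7.67 RPKM in Full, 3.49, 3.81 and 3.96 in Depleted and 5.51, 6.02 and 6.49 in Repleted. Again all Depleted libraries were the lowest, with a log2 change of -0.47 against Full (SE 0.16, limma adjusted p = 0.0256) and -0.56 against Repleted (SE 0.16, adjusted p = 0.0117). The call against Full was lost without Full 3, Depleted 1 or Depleted 2 (adjusted p = 0.0525, 0.0728 and 0.0549), with no filter (0.0670) and with quantile normalization (0.111), which also ended the call against Repleted (0.0539).

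HIST2H4A, a near-identical copy of HIST2H4B, was at 13.3, 12.7 and 10.3 RPKM in Full, 11.4, 8.74 and 10.8 in Depleted and 14.6, 13.1 and 14.3 in Repleted. Depleted overlapped Full and was below Repleted (log2 change -0.21 against Full, SE 0.11, limma adjusted p = 0.135; -0.41 against Repleted, SE 0.11, adjusted p = 0.0107). Without Full replicate 3 the first also passed (adjusted p = 0.0335). The 2 copies together were at 17.8 RPKM in Full, 14.1 in Depleted and 20.0 in Repleted, and the sum fell by 0.32 on the log2 scale against Full (SE 0.07, limma adjusted p = 0.00308) and by 0.48 against Repleted (SE 0.07, adjusted p = 0.000263). Here the sum gave the firmer result than either copy. HIST2H4A and HIST2H4B overlap HIST2H3C and HIST2H3A on the opposite strand, and without a stated strand of counting the reads of such genes cannot be told apart.

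Of the HIST1 genes, HIST1H4J and HIST1H3E had a negative log2 change against Full. HIST1H4J was at 3.54, 2.6 and 2.08 RPKM in Full, 1.00, 2.26 and 1.30 in Depleted and 0, 2.53 and 3.41 in Repleted, while HIST1H4K, with which it shares 81.2% of its 50-base stretches, was listed at 0 in 8 libraries and at 3.24 RPKM in Repleted replicate 1, the library in which HIST1H4J was at 0. HIST1H4J alone was not called (log2 change -0.58 against Full, SE 0.48, limma adjusted p = 0.320), but passed without Repleted replicate 1 against Full (0.0447) and against Repleted (0.0410). The sum of both genes was 2.74 RPKM in Full, 1.52 in Depleted and 3.06 in Repleted, and it fell by 0.58 on the log2 scale against Full (SE 0.21, limma adjusted p = 0.0332) and by 0.71 against Repleted (SE 0.21, adjusted p = 0.0135). Depleted and Full libraries overlapped in this sum.

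**Figure D3:**
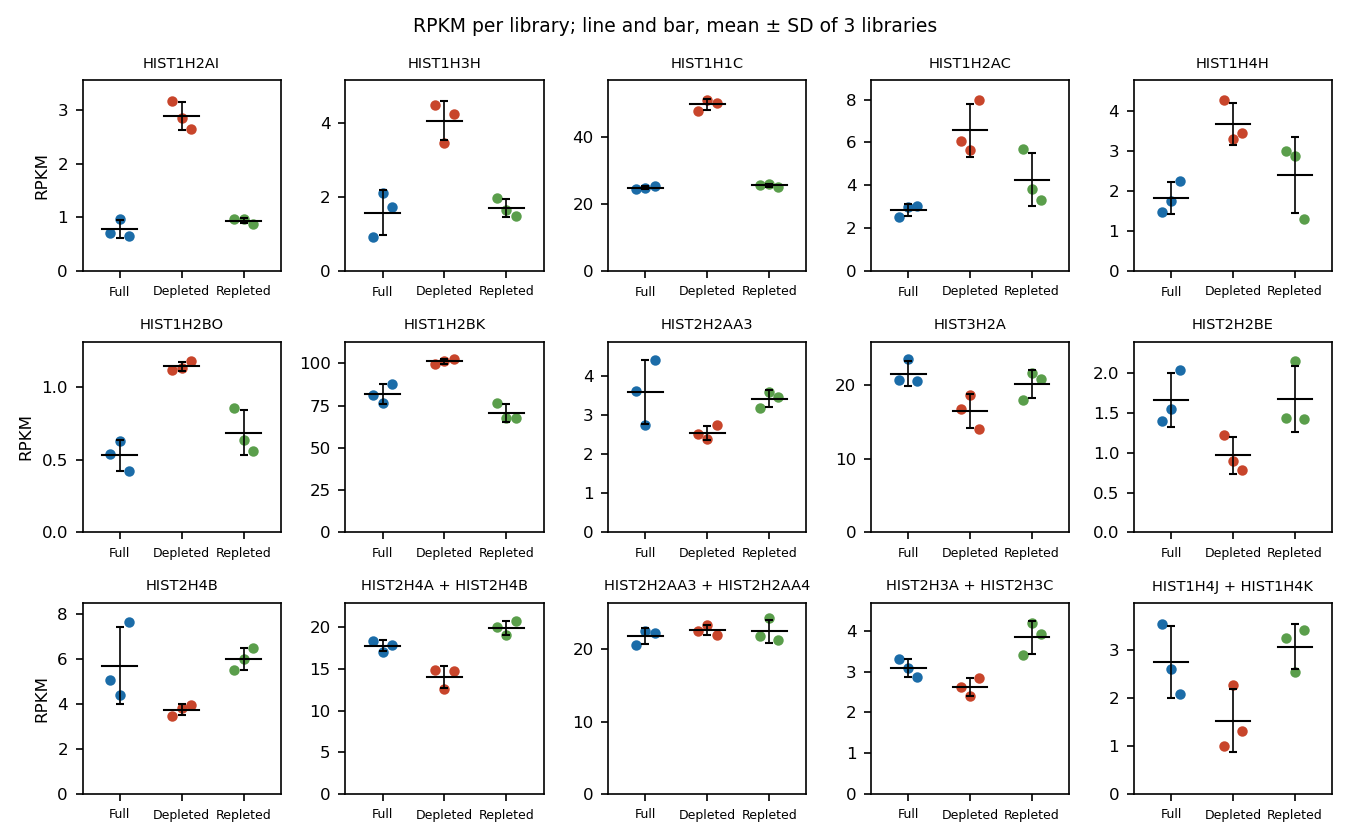
RPKM in each of the 9 libraries (points), with the mean and SD of each group of 3 (horizontal line and bar), for the 11 histone genes called in Depleted against Full and for the sums of 4 pairs of near-identical genes. The Depleted mean lies above both others for the 7 HIST1 genes, below Full for HIST3H2A and the 3 HIST2 genes, and near both others for the sum of HIST2H2AA3 and HIST2H2AA4.

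Seen over whole clusters, the summed RPKM of all 71 genes was 208 ± 6.31 in Full, 261 ± 4.27 in Depleted and 204 ± 6.62 in Repleted (SD, n = 3). The HIST1 sum was 139 ± 6.58 RPKM in Full, 200.04 ± 3.42 in Depleted and 130.1 ± 8.94 in Repleted. Leaving out the abundant HIST1H2BK and HIST1H1C, it was 31.6 ± 2.19, 49 ± 1.82 and 33.9 ± 3.71 RPKM. The HIST2 sum was 46.0 ± 0.558 RPKM in Full, 42.4 ± 1.56 in Depleted and 51.2 ± 1.12 in Repleted, and the HIST3 sum 23.1 ± 1.37, 17.5 ± 2.32 and 21.5 ± 1.77. In each HIST1 sum all Depleted libraries were above all others, and in the HIST2 sum they were below all others. HIST1H1C made up 12.0 ± 0.157% of all histone RPKM in Full, 19.1 ± 0.554% in Depleted and 12.6 ± 0.334% in Repleted, while HIST1H2BK held 39.4 ± 1.94%, 38.8 ± 0.859% and 34.6 ± 1.49%. HIST3H2A went from 10.3 ± 0.972% in Full to 6.28 ± 0.80% in Depleted and was 9.89 ± 1.21% in Repleted.

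**Figure D4:**
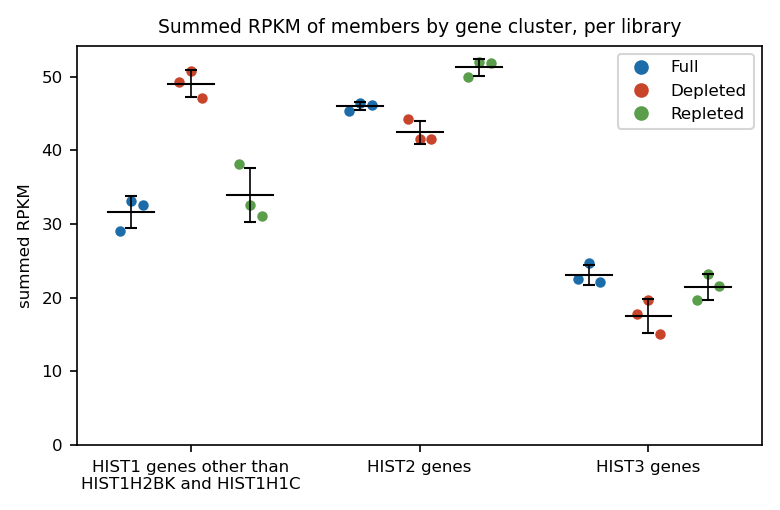
Summed RPKM per library (points) with the mean and SD of 3 libraries (line and bar) for the HIST1 genes other than HIST1H2BK and HIST1H1C, the HIST2 genes and the HIST3 genes. The Depleted libraries are highest in the HIST1 sum and lowest in the HIST2 sum.

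Against Repleted medium, which differs from Depleted medium in the Zn(II) added back, 14 of 26 genes were called (53.8%), 7 higher and 7 lower, where 60.7% of the 15774 were called, 29.5% higher and 31.2% lower. Again HIST1H2AI, which passed the filter through the Depleted libraries only, was the single gene past 1 on the log2 scale. Of all genes, 9.78% were called and past 1 in either direction. The 7 higher genes were HIST1H1C, HIST1H2AC, HIST1H2AI, HIST1H2BC, HIST1H2BJ, HIST1H2BK and HIST1H3H, all HIST1. The 7 lower genes were HIST2H2AC, HIST2H2BE, HIST2H3A, HIST2H3C, HIST2H4A, HIST2H4B and HIST3H2A. With median centring or quantile normalization the split was 10 higher and 3 lower. The number that fell was 4 without Depleted replicate 1 or Depleted replicate 2, and 3 without Repleted replicate 2 or Repleted replicate 3. The median log2 change was 0.09 over the 26 genes and -0.01 over all genes. This comparison and the one against Full share the 3 Depleted libraries, so their likeness is not independent evidence. Depleted and Repleted libraries did not overlap for 16 of 26 genes, 9 higher and 7 lower in Depleted (61.5%, against 65.2% of all genes, 31.7% higher and 33.4% lower). The 9 include HIST1H2AI, HIST1H2BO and HIST1H2AL, which were tested because they were high in Depleted. Outside Depleted, HIST1H2AL reached 1 RPKM in Full replicate 1 only. Each count of 7 lower genes holds HIST2H3A and HIST2H3C, which are 1 measurement. Each also holds HIST2H2AC, which was tested because it was high in Repleted. With near-identical copies summed, so that fewer than 26 were tested, 7 were called higher and 6 lower. The 6 lower include a HIST1 sum, that of HIST1H4J and HIST1H4K (limma adjusted p = 0.0135).

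Between Repleted and Full, 0 of 26 histone genes were called by limma, and 5 of all genes were (0.0317%; 0.019% at a log2 change of at least 1 in size). At an unadjusted p under 0.05 there were 3 histone genes, where 7.76% of all genes had such a p. They were HIST1H2BK, at 82.0 RPKM in Full and 70.6 in Repleted (log2 change -0.21, SE 0.06, limma adjusted p = 0.474), HIST2H2AC, at 0.893 and 1.91 RPKM (0.61, SE 0.20, adjusted p = 0.525), and HIST1H2AC, at 2.85 and 4.26 RPKM (0.43, SE 0.17, adjusted p = 0.602). The median log2 change was 0.05 over the 26 genes, and the libraries did not overlap for 6 of them, 5 higher and 1 lower in Repleted (23.1%, against 12.4% of all genes, 5.39% higher and 7% lower). The 5 include HIST2H3A and HIST2H3C, which are 1 measurement. HIST2H2AC, in both the 5 and the 3 named above, was tested because it was high in Repleted.

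Genes that lie head to head share a promoter region but were not always called together. HIST1H2AC and HIST1H2BC start 219 bases apart on opposite strands; HIST1H2AC rose against Full and HIST1H2BC, at 1.30 RPKM in Full and 1.81 in Depleted, was not called (log2 change 0.29, SE 0.16, limma adjusted p = 0.151). HIST3H2A and HIST3H2BB start 234 bases apart, and HIST3H2A fell where HIST3H2BB was not called (log2 change -0.28, SE 0.18, limma adjusted p = 0.194). HIST2H2BE and HIST2H2AC, 323 bases apart, both fell against Repleted, and against Full HIST2H2BE alone was called. HIST2H2AC was tested because it was high in Repleted. HIST1H2BO and HIST1H2AM start 314 bases apart, and HIST1H2BO alone was called against Full. The partners of HIST1H2BK and HIST1H2AI, HIST1H2AH and HIST1H2BL, were under the filter. Whether the partners differ from each other was not tested.

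Of 5 histone genes known from other cells to give polyadenylated RNA, HIST1H1C, HIST1H2AC and HIST1H2BK rose against Full, HIST2H2BE fell and HIST1H2BD was not called. The other genes of histone supply also moved both ways, and the count for each list is read against the 60.9% of all genes that were called. Of 12 replication-independent histones, most of which are made throughout the cell cycle from ordinary polyadenylated mRNA, 4 rose and 6 fell (median log2 change -0.28). H2AFY, encoding macroH2A1, fell from 223 to 128 RPKM, H2AFY2, encoding macroH2A2, from 32.5 to 15.2 RPKM, and the linker histone gene H1FX from 204 to 126 RPKM, while H2AFZ, encoding H2A.Z, rose from 795 to 922 RPKM.

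Of 16 tested genes for making histone mRNA 3′ ends, with cleavage and polyadenylation factors among them, 4 rose and 4 fell (median 0.05). LSM10, a protein of the U7 particle, fell from 46.1 to 21.6 RPKM, CPSF4, a subunit of the cleavage and polyadenylation complex, from 34.5 to 16.8 RPKM, and ZNF473, a zinc finger protein that acts with the U7 particle, from 11.2 to 4.30 RPKM. NCBP2, a cap-binding protein, rose from 60.5 to 76.0 RPKM. SLBP, named here outside the rule of smallest p because it binds the stem-loop, rose from 84.5 ± 1.59 to 107 ± 5.09 RPKM (SD, n = 3; log2 change 0.34, SE 0.04, limma adjusted p = 8.42e-05) and was at 86.0 ± 2.78 in Repleted.

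Of 10 tested genes for histone gene transcription, 5 rose and 2 fell (median 0.23). The risers CCNE1 (27.8 to 40.7 RPKM) and CCNE2 (12.0 to 18.6 RPKM) encode the cyclins of S phase entry, and E2F1 (35.2 to 49.6 RPKM) and YY1 (71.4 to 89.7 RPKM) are transcription factors. The fifth riser, NPAT, named outside the rule of smallest p because it is the coactivator of histone genes, went from 7.66 to 12.9 RPKM. Of 10 genes of histone mRNA decay, 4 rose and 2 fell (median -0.07), with DIS3 (57.2 to 77.0 RPKM), UPF1 (45.8 to 58.3 RPKM), ZCCHC6 (4.02 to 6.10 RPKM) and SMG1 (12.9 to 17.8 RPKM) the risers.

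Of 16 histone chaperone genes, 5 rose and 4 fell (median 0.11). SSRP1, a subunit of the FACT complex that handles H2A and H2B, fell from 190 ± 1.43 to 33.2 ± 1.94 RPKM and was at 193 ± 1.56 in Repleted (SD, n = 3; log2 change against Full -2.49, SE 0.04, limma adjusted p = 8.50e-10). IPO4, which imports H3 and H4, fell from 65.2 to 30.9 RPKM, ASF1A, an H3-H4 chaperone, from 21.7 to 7.91 RPKM, and RBBP4, a subunit of chromatin assembly factor 1, rose from 222 to 345 RPKM. Of 21 genes of DNA replication in S phase, 7 rose and 6 fell (median 0.01). The helicase subunits MCM3 (156 to 116 RPKM) and MCM5 (142 to 104 RPKM) and cyclin A2, CCNA2 (63.4 to 47.7 RPKM), fell, and RRM1, a subunit of ribonucleotide reductase, rose (121 to 160.1 RPKM). Between Repleted and Full no gene of these lists was called by limma.

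**Figure D5:**
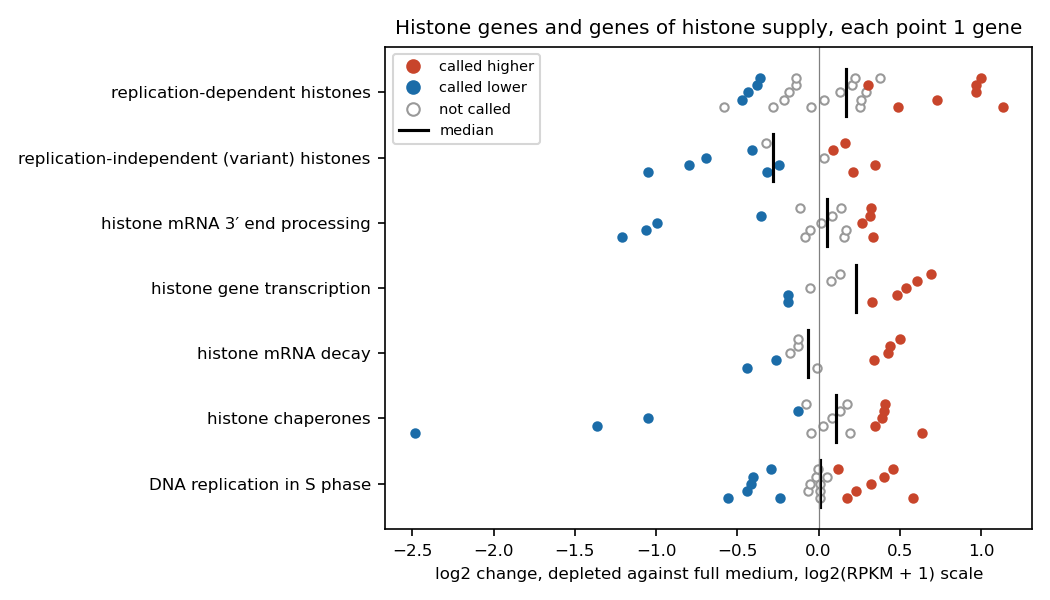
Log2 change in Depleted against Full of each tested gene of 7 lists, on the log2(RPKM + 1) scale, each point 1 gene, with called genes filled (red higher, blue lower) and a vertical bar at each list's median. Every list holds genes called in both directions, and the lowest point is SSRP1.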

How the data were processed

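Poly(A)-selected RNA of 9 HEK293 Freestyle libraries was sequenced single-end on an Illumina instrument, per the labels' protocols. The submitters' processing notes list RSEM 1.2.6, Bowtie 1.0.1, BWA 0.7.12-r1039, bedtools 2.25.0.3 and the build hg19 (GRCh37), without saying which step each served; the strand of counting and the treatment of reads that fit several genes are not given in the sources used here. The authors deposited log2(RPKM + 1) per gene and library, per the file headers and the values, which convert back to RPKM in steps of 0.01. Blank rows (20320) were left out, and 0 columns were of unknown sample. RPKM are not counts, so no count test was used.

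The 15774 genes that reached 1 RPKM in 3 or more libraries were tested on the deposited log2 values (pseudocount 1) with limma 3.58.1 in R 4.3.3 (1 mean per group, all 9 libraries sharing the spread, intensity trend), with Benjamini-Hochberg adjustment over all tested genes and a threshold of 0.05. The script was tested on simulated data. Error on a group mean is the SD over 3 libraries. Depth was estimated from the steps between low values, over genes of 100 to 500 bases effective length, and reads per gene follow from it; they are estimates. Arithmetic on sequences used Python 3.11.15 with pandas 2.3.3 and figures matplotlib 3.10.9. The stem-loop was searched in GENCODE 29 transcripts and promoter motifs in RefSeq windows.

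All 26 members above the filter are named, with library values for those called in any comparison and for the 5 highest. From each other list the genes called in Depleted against Full with the smallest p, up to 4, are named; SLBP and NPAT were added outside that rule. The members, lists and comparisons were chosen with earlier results of these data known. Alternatives were another pseudocount (0.1), other filters, scalings, gene sets and thresholds, a replicate block and leaving out each library. The filter was not set anew when a library was left out. Summing near-identical copies was added after seeing the data. NEFL, a HEK293 marker, was not analysed here.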

Additional observations from a re-analysis of the deposited data

How the results depend on the processing

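For the 26 histone genes in 3 comparisons (78 results), 1395 alternative values were computed, of which 1280 stayed on the same side of the threshold, 89 lost a call, 26 gained one and 0 reversed a called direction. Of 25 called results, 9 lost their call under no alternative run: HIST1H1C, HIST1H2AI, HIST1H2BK and HIST1H3H in both Depleted comparisons and HIST1H2AC against Full. HIST1H2AI entered through its Depleted libraries only. Runs that left out 1 library kept the filter set on all 9, so HIST1H2AI stayed in the test without a Depleted library. With the filter set anew it would not have been tested there. The genes that fell depended more on the processing. Against Full, 4 fell, and the number was 1 with no filter, 2 with median centring, 1 with quantile normalization, 0 at an adjusted threshold of 0.01, and 1 to 4 when 1 library was left out. Against Repleted, 7 fell, and the number was 3 with no filter, 4 with the 6 libraries of the compared groups alone, 3 with median centring, 3 with quantile normalization, 0 at a threshold of 0.01, and 3 to 8 when 1 library was left out. The 7 that rose against Repleted were 4 at a threshold of 0.01. Over all genes, Repleted against Full had 0 higher (0 to 3 when 1 library was left out) and 5 lower (3 with pseudocount 0.1, 2 with no filter, 2 with the 6 libraries alone, 1 at a threshold of 0.01, and 1 to 6 when 1 library was left out). The cause of these shifts was not tested. Genes near 1 RPKM rest on few reads, which limits what could be detected.

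Residuals of samples with the same replicate number correlated at -0.0144 to 0.0726 and those of other pairs at -0.0609 to 0.0416, so the numbers were not taken to pair the samples. With a replicate block, 4 histone genes fell against Repleted, the calls of HIST2H2BE (adjusted p = 0.0691 against Full, 0.0687 against Repleted) and of HIST2H3A and HIST2H3C against Repleted (0.0518) were lost, and 2 of all genes were lower in Repleted against Full.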
